A study of Ovis aries with 16 samples.

Results

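The genes described here were OPRK1, which encodes the kappa opioid receptor, TAC3, which encodes the precursor of the tachykinin peptide neurokinin B, and 5HT2A (HTR2A in the sheep reference), which encodes the serotonin receptor 2A. They were 3 of the 990 genes to which a name could be given on a sheep array, and 4 of its 15008 probes measured them, 2 for OPRK1 and 1 each for TAC3 and 5HT2A. The 3 genes were chosen by measured values of these same arrays: OPRK1 by its higher level in normoxia + ketamine than in normoxia control, and TAC3 by its lower levels in hypoxia control and in normoxia + ketamine than in normoxia control. Which comparison led to 5HT2A was not given, so every comparison was treated as having chosen it. The differences between groups that follow were therefore given as descriptions with no test, except where arrays that did not choose the gene could be compared.

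RNA came from the frontal cerebral cortex of 16 chronically catheterized late gestation fetal sheep, with 1 one-colour array per fetus. The normoxia control group had 3 fetuses with neither hypoxia nor ketamine, and the normoxia + ketamine group had 4 fetuses given 3 mg/kg of ketamine, an anesthetic that blocks NMDA glutamate receptors, into a fetal vein. The hypoxia control group had 5 fetuses whose ewes breathed added nitrogen for 30 min, and the hypoxia + ketamine group had 4 fetuses given the same dose of ketamine before the same hypoxia. All cortices were taken 24 h after the stimulus began, that is after 23.5 h of recovery, so that no value here shows the minutes or hours just after ketamine. No strain or genotype was given, all fetuses had been through surgery under anesthesia, and nearly all were twins whose shared ewes were not labelled. One fetus had labels that disagree. By title and code it was hypoxia control replicate 1, which is how it was grouped, while other label fields described it as ketamine without hypoxia, and values with it moved to that group follow beside the results.

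Kappa opioid receptors are G protein-coupled receptors that respond mainly to dynorphin peptides and lower the release of transmitter from nerve endings. Neurokinin B is cut from its precursor inside neurons, and is best known for its role in the hypothalamic neurons that pace gonadotropin release, although scattered neurons of the cerebral cortex also make it. The serotonin receptor 2A is coupled to phospholipase C and is the main excitatory serotonin receptor of cortical pyramidal neurons. In a block of cortex, fewer cells of a type and less RNA in each cell cannot be told apart.

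The probes, printed from 5′ to 3′ as the array design holds them, show which stretch of each transcript gave the values. In the OPRK1 probes the capitals mark the codons of the NPxxY motif at the end of the last membrane helix, a motif common to receptors of this class. In the TAC3 probe they mark the codons of the tachykinin signature that ends the active peptide, with the amidation and cleavage signal behind it.
OPRK1 probe 1: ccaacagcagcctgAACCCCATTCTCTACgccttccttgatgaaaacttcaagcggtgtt
OPRK1 probe 2: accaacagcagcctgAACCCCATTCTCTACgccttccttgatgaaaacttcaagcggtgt
TAC3: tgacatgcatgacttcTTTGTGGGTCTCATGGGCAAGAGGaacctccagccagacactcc
5HT2A: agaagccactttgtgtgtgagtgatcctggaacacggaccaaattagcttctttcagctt
Read on both strands in every frame, the tachykinin signature lay in 1 of the 15008 probes (0.00666%), the TAC3 probe itself, at its bases 17 to 40. The NPxxY motif lay in 80 of them (0.533%), at bases 15 to 29 of OPRK1 probe 1 and bases 16 to 30 of probe 2. The OPRK1 probes were 60 bases long and shared 59 of them, 1 base apart, so they were 2 readings of 1 piece of the transcript and not independent sequences. No probe of another gene shared a run of 14 bases with any of the 4. The files gave no chromosome position or genome build for them, so no coordinates were set.

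The share of spots well above background ran from 69.2 to 76.9% over the arrays, which lay on 2 slides that each held all 4 groups. The label of the tissue was checked against its markers: the neuronal gene NRGN was well above background on 16 of 16 arrays, the interneuron genes SST and NPY and the astrocyte genes GFAP and AQP4 likewise, and the neurofilament gene NEFH on 13. The astrocyte genes SLC1A2 and FGFR3 were so on only 1 array each. From the hypothalamus and pituitary list LHB, POMC and OXT were also well above background on 16 arrays, and the choroid plexus gene TTR on 15. The check thus did not single out cortex. Of 108 marker genes in 9 cell type lists, 33 were found among the named probes, and none of the oligodendrocyte list was. Only 1603 of the 15008 probes could be named, so that list genes not found may still have had a probe. OPRK1 was well above background on all 16 arrays with both probes, with spot signals of 197 to 365 units for probe 1 over a local background of 19 to 29. TAC3 was well above background on 15 arrays, with signals of 82.4 to 168 units. 5HT2A was well above background on only 7 arrays, with signals of 46.1 to 94.1 units over a background of 19 to 31, so its values carried the least information of the 3.

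**Figure D1:**
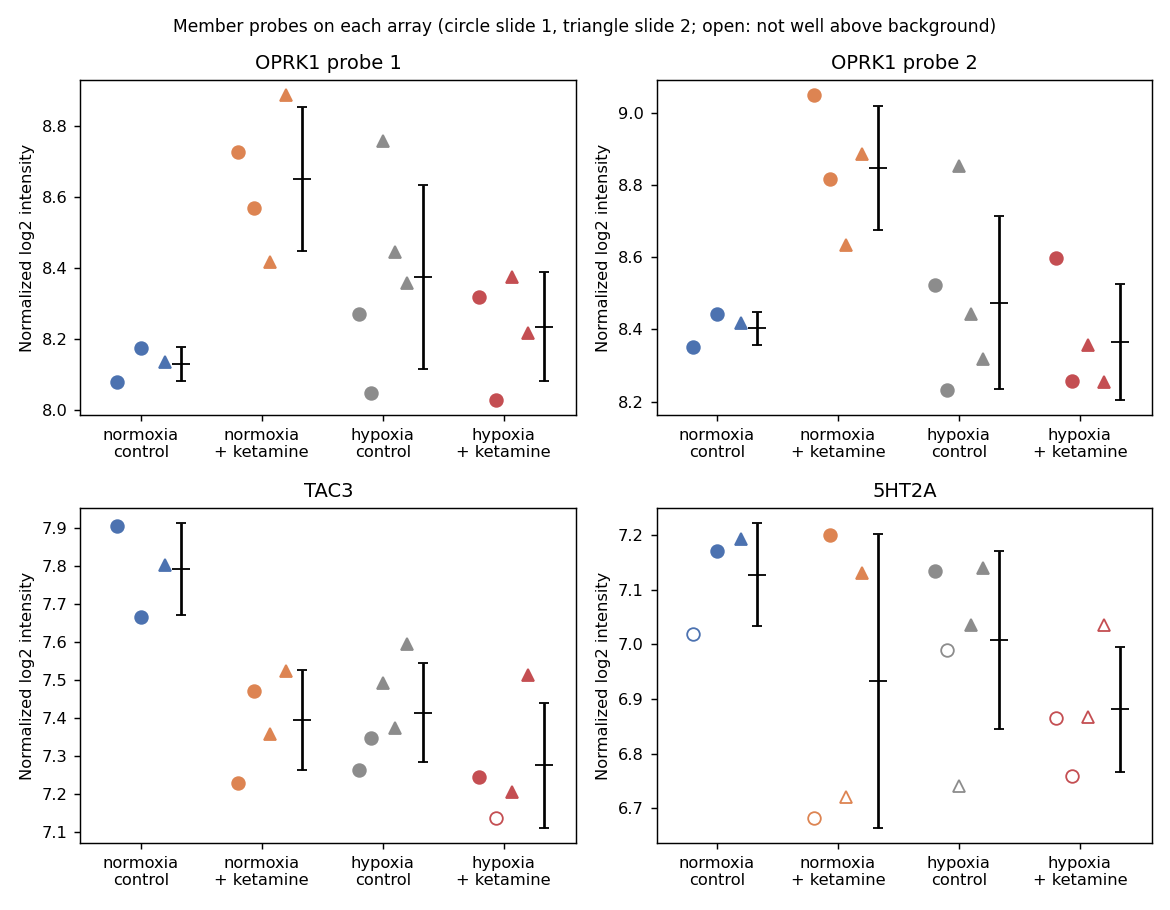
Normalized log2 intensity (vertical axis) of the 4 probes on the 16 arrays by group, each point 1 fetus, with the group mean and SD in black; circles are arrays of slide 1, triangles arrays of slide 2, and open symbols arrays where the probe was not well above background. TAC3 in the 3 normoxia control arrays lay above all 13 other arrays, OPRK1 was high in normoxia + ketamine, and 5HT2A was open on all 4 hypoxia + ketamine arrays.

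Of the receptors, OPRK1 was 1.43-fold higher in normoxia + ketamine than in normoxia control, and under hypoxia no such difference with ketamine was seen. Probe 1 read 8.08, 8.18 and 8.13 log2 units in the 3 normoxia control fetuses, which lay close together with a mean of 8.13 ± 0.05 (SD, n = 3). The 4 normoxia + ketamine fetuses read 8.73, 8.57, 8.42 and 8.89, with a mean of 8.65 ± 0.20 (SD, n = 4). All 4 ketamine values were above all 3 controls, and the log2 difference was 0.52 (standard error 0.14), which is the value that chose the gene and was not tested here. The share of all probes whose groups did not overlap was not counted for this or any other comparison. With groups this small a lack of overlap carries little weight: SST also had none here, and was not called. Over all probes, 0.880% were called higher and 1.43% lower in this comparison at an unadjusted P under 0.05. In the signal processed by the scanner software and scaled to the 75th percentile the same difference was 0.86, and under that scaling after normexp background correction it was 0.28, or 0.58 above the median of all probes. With the fetus of conflicting labels moved to normoxia + ketamine it was 0.44 (standard error 0.15). No cell type marker was called between these groups, with 0 higher and 0 lower of 33 at an unadjusted P under 0.05 by limma, and their part in the OPRK1 difference was not tested. The widest marker difference was that of the choroid plexus gene TTR, at -3.44 (standard error 1.71, unadjusted P = 0.063 by limma). TTR ran from 9.33 to 16 within normoxia control alone, so the lack of a call does not show that the tissue pieces were alike.

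In hypoxia control, OPRK1 probe 1 was the most spread of the groups. The 5 fetuses read 8.27, 8.05, 8.76, 8.44 and 8.36, with a mean of 8.37 ± 0.26 (SD, n = 5). Replicate 3 was as high as the ketamine fetuses in normoxia, and replicate 2 was below all controls, so that the group overlapped with every other. Its mean was 0.25 log2 units above normoxia control (standard error 0.14), with 2 arrays of each group on slide 1 giving 0.03 and slide 2 giving 0.38 from 3 arrays against 1. The second probe gave 0.07 for the same difference (standard error 0.13), and leaving out hypoxia control replicate 3 turned it to -0.02. Over all probes, 3.34% were called higher and 4.64% lower in hypoxia control than in normoxia control.

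The comparison of hypoxia + ketamine with hypoxia control used arrays that had not chosen OPRK1, and was tested. The 4 hypoxia + ketamine fetuses read 8.32, 8.03, 8.37 and 8.22, with a mean of 8.23 ± 0.15 (SD, n = 4). The second of them lay just below the lowest hypoxia control value of 8.05, and the others lay within the range of hypoxia control. The log2 difference was -0.14 (standard error 0.12, 95% interval -0.41 to 0.13), with an unadjusted P of 0.278 and an adjusted P of 0.767 in limma. The standard error in limma also draws on the normoxia arrays, which did choose the gene. An exact two-sided permutation test over the 126 arrangements of the 9 fetuses gave p = 0.373, and the number of arrangements limits how small such a p can be. Probe 2 gave -0.11 (standard error 0.12) and an exact permutation p = 0.516. Without hypoxia control replicate 3 the difference at probe 1 was -0.045 (unadjusted P = 0.686 by limma). With the fetus of conflicting labels moved it was -0.17 (unadjusted P = 0.265 by limma). Of the 33 cell type markers 0 were called higher and 6 lower in this comparison, among them the astrocyte gene GFAP, and their part in it was not tested. Over all probes, 5.49% were called higher and 3.56% lower in this comparison.

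Set between the ketamine groups, OPRK1 was lower with hypoxia by 0.42 log2 units at probe 1 (1.33-fold) and 0.48 at probe 2 (1.40-fold), with no overlap of the groups at either probe. The normoxia + ketamine arrays that chose the gene are in that comparison, so it stands as a description, as does the difference of -0.66 (standard error 0.19) between the ketamine difference in hypoxia and that in normoxia. Over all probes, 3.12% were called higher and 3.74% lower in hypoxia + ketamine than in normoxia + ketamine. By mean level the order of the groups at probe 1 was normoxia control, hypoxia + ketamine, hypoxia control and normoxia + ketamine from low to high, and each neighbouring pair in that order overlapped. Hypoxia + ketamine lay 0.11 above normoxia control at probe 1 and 0.04 below it at probe 2, at which it ranked lowest.

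The second OPRK1 probe gave the same picture for ketamine in normoxia. It read 8.35, 8.44 and 8.42 in normoxia control and 9.05, 8.82, 8.63 and 8.89 in normoxia + ketamine, a log2 difference of 0.44 (standard error 0.13) with no overlap. In hypoxia control it read 8.52, 8.23, 8.85, 8.44 and 8.32, and in hypoxia + ketamine 8.60, 8.26, 8.36 and 8.25. Over the 16 arrays the probes correlated with r = 0.877, and with r = 0.793 after the group means were taken out, as a description of readings from the same RNA. Their difference was not the same on all arrays. On the 8 arrays of slide 1, probe 1 was below probe 2 by 0.19 to 0.33 log2 units, whereas on the 8 arrays of slide 2 the difference ran from -0.28 to 0.04 with a median of -0.02. Within slide 1, with 2 arrays a group, the ketamine difference in normoxia was 0.52 at probe 1 and 0.54 at probe 2. Within slide 2, with 2 arrays against 1, it was 0.52 and 0.34.

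**Figure D2:**
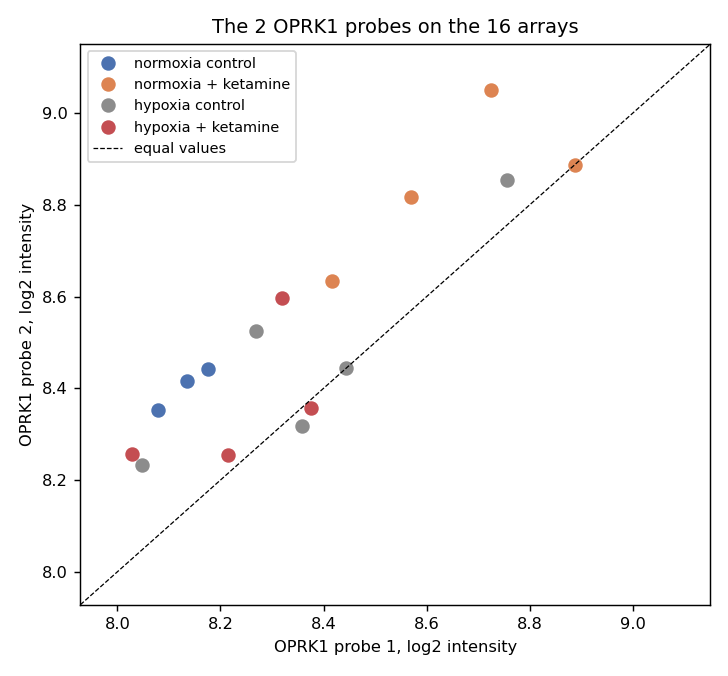
Log2 intensity of OPRK1 probe 2 (vertical axis) against probe 1 (horizontal axis), each point 1 of the 16 arrays coloured by group, with the dashed line at equal values. The normoxia + ketamine arrays lie at the upper right, with hypoxia control replicate 3 among them, and the points fall from 0.33 above the line to 0.04 below it.

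The peptide precursor gene TAC3 was highest in the untreated fetuses. The 3 normoxia control fetuses read 7.91, 7.67 and 7.80, with a mean of 7.79 ± 0.12 (SD, n = 3), and all 13 other fetuses read lower, the highest of them at 7.60. The 5 hypoxia control fetuses read 7.26, 7.35, 7.49, 7.37 and 7.60, with a mean of 7.41 ± 0.13 (SD, n = 5). Hypoxia control was thus 1.30-fold lower than normoxia control, a log2 difference of -0.38 (standard error 0.10), with no overlap between the groups. This is 1 of the 2 differences that chose the gene, and it was not tested.

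With ketamine alone, TAC3 read 7.23, 7.47, 7.36 and 7.52, with a mean of 7.40 ± 0.13 (SD, n = 4), a log2 difference of -0.40 from normoxia control (standard error 0.10). The mean after ketamine and the mean after hypoxia differed by less than the SD of either group, and both differences share the same 3 controls, so they are not 2 independent observations. With ketamine and hypoxia together, TAC3 read 7.24, 7.14, 7.21 and 7.51, and it was not well above background in the second of these fetuses. The mean was 7.28 ± 0.17 (SD, n = 4), 0.52 log2 units or 1.43-fold below normoxia control, again with no overlap. Against hypoxia control the difference was -0.14 (standard error 0.09) and against normoxia + ketamine -0.12 (standard error 0.10), and in both cases the groups overlapped. From low to high the order was hypoxia + ketamine, normoxia + ketamine, hypoxia control and normoxia control, in which only the last step was free of overlap.

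The TAC3 differences had the same sign on both slides. Hypoxia control minus normoxia control was -0.48 on slide 1 and -0.32 on slide 2, and normoxia + ketamine minus normoxia control was -0.44 and -0.36, where slide 2 held a single normoxia control array. In the scanner-processed signal the differences for hypoxia and ketamine were -0.71 and -0.79. With the fetus of conflicting labels moved they were -0.34 and -0.42. SST, which marks a class of cortical interneurons, had a like order at these groups: its log2 level was 15.95 to 15.99 in normoxia control, 15.42 to 15.85 in normoxia + ketamine and 15.17 to 15.90 in hypoxia control, although neither difference was called by limma (unadjusted P = 0.148 and 0.133). In hypoxia + ketamine SST ran from 15.59 to 16.00 and overlapped with normoxia control, where TAC3 did not. The summed level of the interneuron markers SST and NPY, the only 2 of 16 found among the named probes, was 16.17 to 16.22 in normoxia control against 15.81 to 16.10 in normoxia + ketamine, 15.53 to 16.12 in hypoxia control and 15.77 to 16.21 in hypoxia + ketamine, and its part in the TAC3 differences was not tested. That sum, of unlogged intensities, mostly reflects the brighter SST. NPY alone did not follow TAC3, with log2 differences from normoxia control of 0.19 in normoxia + ketamine and -0.006 in hypoxia control. Among all 33 markers, 4 were called higher and 1 lower in hypoxia control than in normoxia control at an unadjusted P under 0.05, which are GFAP, CD14, SELP and AHSP, and TTR, where 3.34% of all probes were called higher and 4.64% lower. TTR was at -4.30 there (standard error 1.64), and its part in the TAC3 differences was not tested.

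**Figure D3:**
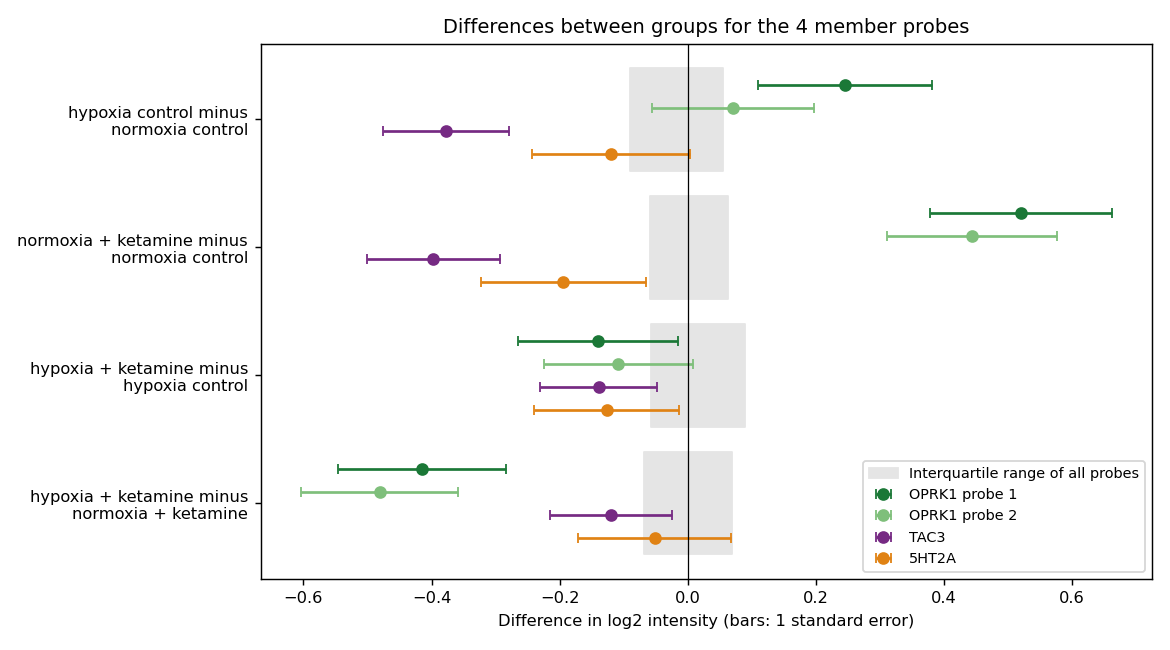
Difference in log2 intensity (horizontal axis) of the 4 probes in the 4 comparisons, points with bars of 1 standard error, over a grey band that holds the interquartile range of all 15008 probes. OPRK1 stands to the right and TAC3 to the left for ketamine in normoxia, with log2 differences of 0.52 and -0.40, while all 4 probes lie between -0.14 and -0.11 for ketamine in hypoxia.

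For 5HT2A the groups overlapped in every comparison. The 3 normoxia control fetuses read 7.02, 7.17 and 7.19, with a mean of 7.13 ± 0.09 (SD, n = 3), the first of them not well above background. The 4 normoxia + ketamine fetuses read 6.68, 7.20, 6.72 and 7.13, so that 2 lay at the level of the controls and 2 were not well above background. The 5 hypoxia control fetuses read 7.14, 6.99, 6.74, 7.03 and 7.14, with a mean of 7.01 ± 0.16 (SD, n = 5), and 3 of the 5 were well above background. The 4 hypoxia + ketamine fetuses read 6.86, 6.76, 6.87 and 7.04, and none was well above background.

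Each of the treated groups had a lower mean of 5HT2A than normoxia control. The log2 difference was -0.12 for hypoxia control (standard error 0.12) and -0.19 for normoxia + ketamine (standard error 0.13), as descriptions with no test. For the hypoxia + ketamine arrays a bound was set, on each array, at the higher of the lowest signal among probes well above background and the 5HT2A value itself, which gave a mean of 6.96 against a measured mean of 6.88 ± 0.11 (SD, n = 4). Against that bound the mean of normoxia control was 1.13-fold and that of hypoxia control 1.04-fold higher, with no allowance for the spread between fetuses. Those means include the 1 of 3 and the 2 of 5 arrays on which 5HT2A was not well above background either, so these small folds rest on few measured values. Nor is the lowest such signal a limit of detection. On hypoxia + ketamine replicate 4 it was 6.92, while 5HT2A at 7.04 was not well above background. Against normoxia + ketamine no fold was given, since that group's mean of 6.93 was under the bound. In the scanner-processed signal, where dim spots have no added offset, the difference for normoxia + ketamine grew to -1.16 with a standard error of 0.71.

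Within the groups, the 3 genes were compared by their deviations from the group means over the 16 arrays. Differences between groups chose the genes, and not the correlation of these deviations, although the size of the deviations enters the limma tests. OPRK1 probe 1 and TAC3 gave Pearson r = 0.25 (permutation p = 0.399, adjusted 0.598) and Spearman rho = 0.165 (permutation p = 0.596, adjusted 0.894). OPRK1 and 5HT2A gave r = -0.07 (permutation p = 0.84, adjusted 0.84) and rho = -0.02 (permutation p = 0.959, adjusted 0.959). TAC3 and 5HT2A gave r = 0.396 (permutation p = 0.167, adjusted 0.501) and rho = 0.412 (permutation p = 0.172, adjusted 0.517). Without the 2 arrays farthest from the median of the first gene, the values of r were 0.02, 0.168 and 0.497, and with group and slide means both taken out they were -0.08, -0.02 and 0.494. None of the 3 pairs passed at 16 arrays.

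The genes whose log2 values ran most like each of the 3 over the 16 arrays were taken from 615 named genes that were well above background on every array. They are given as descriptions, since all values of an array share its labelling and its scaling. For OPRK1 probe 1 these were the sialyltransferase gene ST3GAL4 (r = 0.724), the activin receptor gene ACVR2B (0.681), the AMPA receptor gene GRIA4 (0.654), IGFR1, the files' name for the IGF-1 receptor (0.642), and the NMDA receptor gene GRIN1 (0.632). Probe 2 shared 1 of these 5, ST3GAL4 (0.751), and otherwise ran with NUS1 (0.814), HACD1 (0.722), the prostaglandin receptor gene PTGER3 (0.722) and CLOCK (0.637). For TAC3 they were YEATS4 (0.571), the fatty acid synthase gene FASN (0.57), RPN2 (0.555), the proton pump gene ATP6V1B2 (0.553) and CREB (0.539). For 5HT2A they were ATP6V1B2 (0.869), the IGF-binding protein gene IGFBP5 (0.788), GSTA1-1 (0.775), the mitochondrial membrane gene TSPO (0.762) and BEGAIN, a gene of synaptic contacts (0.734). For 5HT2A the values stayed at 0.716 or above in deviations from the group means, whereas for FASN and TAC3 the value went from 0.57 to 0.277.

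The rest of the signalling system was read from 8 lists of peptides, receptors, transmitter receptors and G protein partners, of which 70 genes were found among the named probes, the 3 members included. Each gene was taken at its brightest probe, which for OPRK1 is probe 2. In hypoxia control against normoxia control 1 gene was higher (1.43%) and 2 were lower (2.86%), TAC3 among them, beside 3.34% and 4.64% of all probes. In normoxia + ketamine against normoxia control 2 were higher (2.86%) and 1 lower (1.43%), OPRK1 and TAC3 among them, beside 0.880% and 1.43%. In hypoxia + ketamine against hypoxia control 0 were higher and 2 were lower (2.86%), beside 5.49% and 3.56%. Against normoxia + ketamine 2 were higher (2.86%) and 5 lower (7.14%), OPRK1 among them, beside 3.12% and 3.74%. These counts include the members chosen by such differences, and apart from the lower genes in the last comparison and the higher genes with ketamine in normoxia no share exceeded that over all probes. By limma's moderated test with Benjamini-Hochberg adjustment 0 of these calls remained in any of the 4 comparisons, and the lowest adjusted P of any probe was 0.263. The median log2 difference of the 70 genes was 0.01 in each of the comparisons, beside -0.02, 0.00, 0.02 and 0.00 over all probes in that order, so the lists as a whole stayed near the bulk of the array.

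Among the opioid genes 4 of 8 were found among the named probes. OPRM1, the mu opioid receptor, read 7.27 to 7.42 in hypoxia + ketamine and 7.40 to 7.56 in normoxia + ketamine, a log2 difference of -0.13 (standard error 0.06, unadjusted P = 0.038 by limma), which turned positive under scaling to the 75th percentile after normexp (0.47, or 0.09 above the median of all probes there). PENK, the precursor of the enkephalins, was called in hypoxia control against normoxia control but was not well above background on any array, so no fold was given. POMC, the precursor of beta-endorphin, was not called in any comparison, and in hypoxia control it differed from normoxia control by -0.40 (standard error 0.23). Of the tachykinin genes 2 of 6 were found. TAC1, the precursor of substance P, was not called, and its log2 difference between hypoxia + ketamine and hypoxia control was 0.41 (standard error 0.22), opposite in sign to that of TAC3. Genes for dynorphin, for the TAC3 receptor and for the other serotonin receptors were not analysed here.

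Of the serotonin list 3 of 23 genes were found. The serotonin transporter gene SLC6A4 was not well above background on any array. AANAT, which acetylates serotonin on the way to melatonin, read 7.90 to 8.15 in hypoxia + ketamine and 7.44 to 7.99 in normoxia + ketamine, a log2 difference of 0.36 (standard error 0.11, unadjusted P = 0.0047 by limma). Its second probe gave 0.22 (unadjusted P = 0.158 by limma).

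Among other peptides, CALCA, the gene of calcitonin and its related peptide, was lower in hypoxia control than in normoxia control by 0.24 log2 units (standard error 0.10, unadjusted P = 0.031 by limma), with ranges of 7.32 to 7.71 and 7.69 to 7.81. NPY, a peptide of cortical interneurons, was lower in hypoxia + ketamine than in normoxia + ketamine by 0.40 (standard error 0.15, unadjusted P = 0.017 by limma), and its second probe gave -0.42. OXT, the oxytocin gene, was higher there by 0.13 (standard error 0.06, unadjusted P = 0.0497 by limma), with ranges that met at 8.67. CALCA, NPY, OXT and OPRM1 each lost the call in some fits that left out 1 array. GNRH1 and GHRH, the genes of hypothalamic releasing hormones, were called lower in hypoxia + ketamine than in hypoxia control but were not well above background on any array, and no fold was given.

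GRIN1, the obligatory subunit of the NMDA receptor that ketamine blocks, had the widest difference among the genes called between the ketamine groups. It read 9.07 to 9.54 in hypoxia + ketamine and 9.63 to 10.08 in normoxia + ketamine, a log2 difference of -0.53 (standard error 0.17, unadjusted P = 0.007 by limma) with no overlap, and its other probes gave -0.60 and -0.63. ADRB1, the beta-1 adrenergic receptor, was higher in normoxia + ketamine than in normoxia control by 0.18 (standard error 0.07, unadjusted P = 0.017 by limma). It was lower in hypoxia + ketamine than in normoxia + ketamine by 0.19 (standard error 0.06, unadjusted P = 0.0085 by limma). ADRB1 was not well above background on some arrays of every group but normoxia + ketamine. Both of these ADRB1 differences changed sign under scaling to the 75th percentile after normexp. None of the 24 other neuropeptide receptor genes and none of the 5 G protein signalling partners was called at its brightest probe in any of the 4 comparisons at an unadjusted P under 0.05. Dimmer probes of 5 of them, named after their values were seen, were under it in 1 comparison each. OXTR, the oxytocin receptor, was at -0.24 in hypoxia control minus normoxia control (unadjusted P = 0.025 by limma), where its brighter probe gave -0.18. The immediate early gene JUN was at -0.72 for ketamine in hypoxia (unadjusted P = 0.011 by limma), where its brightest probe gave -0.15. FOS, of the same class, was at -0.37 for ketamine in normoxia (unadjusted P = 0.041 by limma), where its brightest probe gave -0.55. The galanin receptor GALR3 was at 0.18 for ketamine in hypoxia, and the endothelin receptor EDNRB at -0.20 between the ketamine groups.

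**Figure D4:**
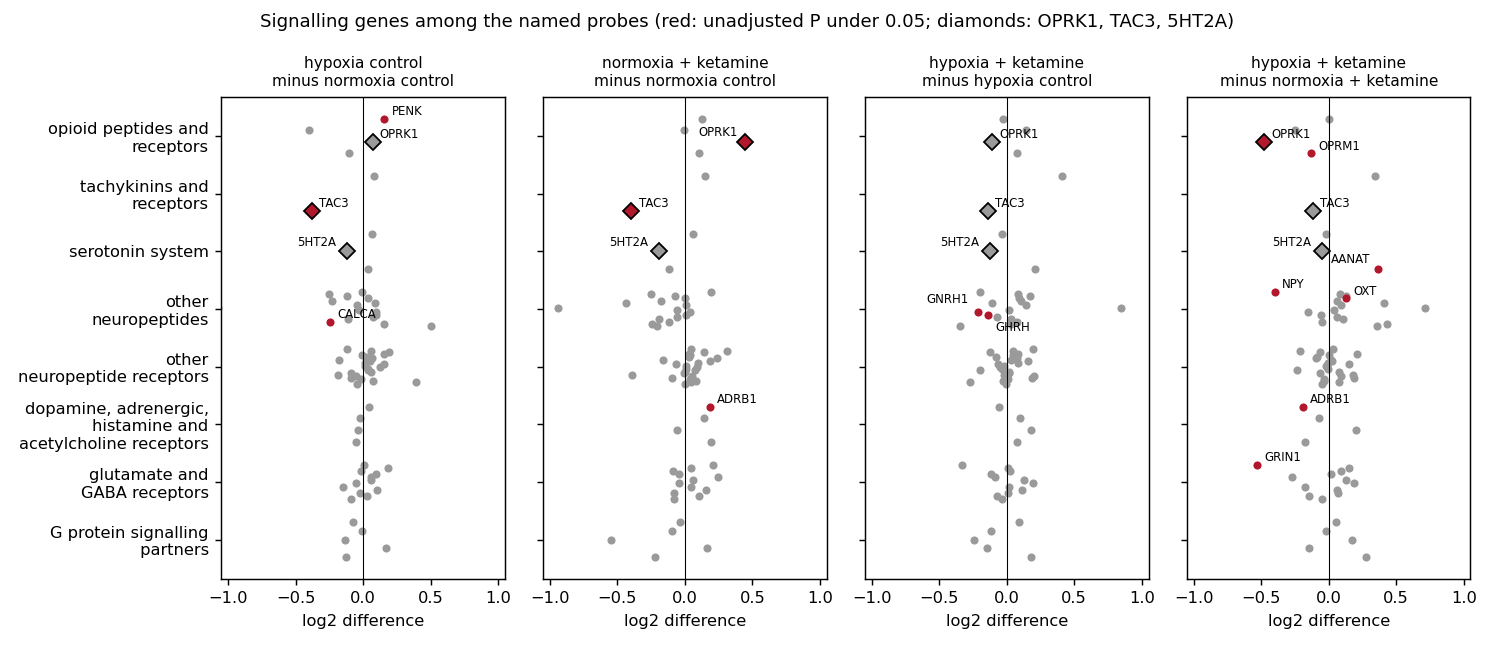
Log2 difference (horizontal axis) of the 70 signalling genes in the 4 comparisons, 1 point per gene in a row for its list; red points had an unadjusted P under 0.05 and are named, and diamonds are OPRK1 (probe 2), TAC3 and 5HT2A. Between 2 and 7 genes are red in a comparison, and the points farthest from 0, among other neuropeptides, are grey. The farthest of these, at -1.07 in hypoxia control minus normoxia control, lies past the end of the axis and is cut off.

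**Figure D5:**
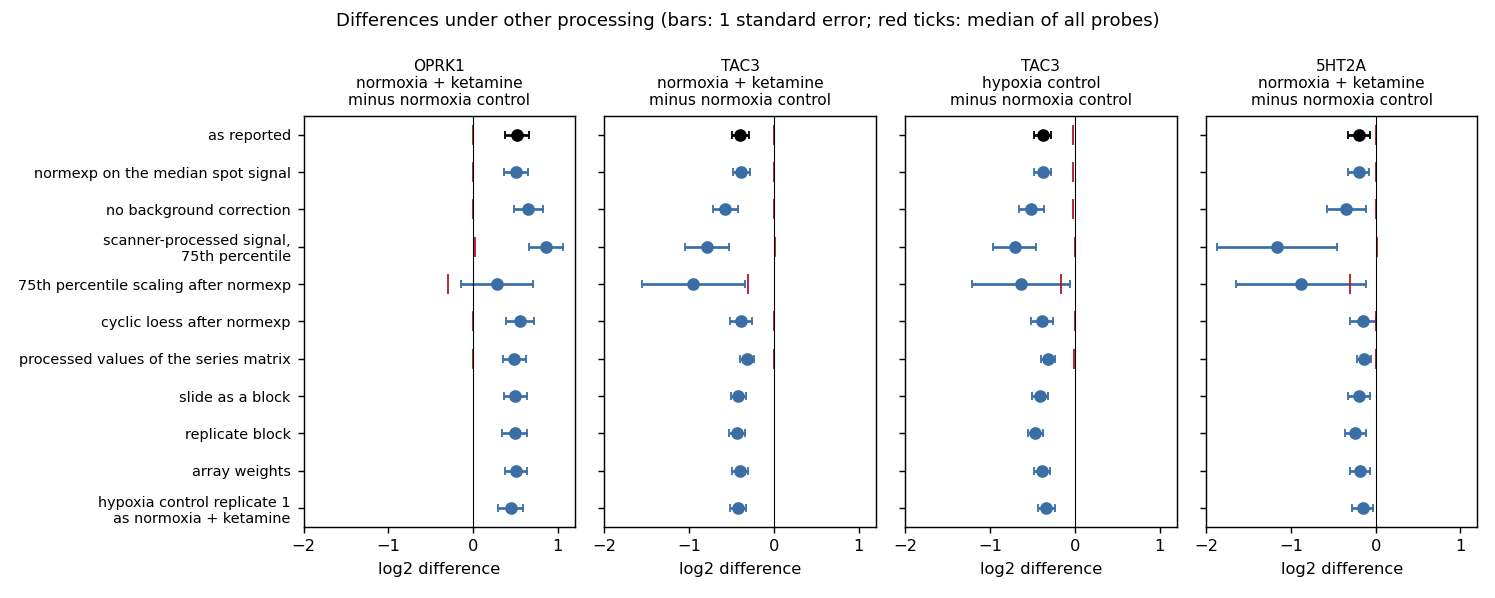
Log2 difference (horizontal axis) of OPRK1 probe 1, TAC3 and 5HT2A in the comparisons named above each panel, as reported and under 10 other ways of processing, with bars of 1 standard error; red ticks mark the median of all probes where the values themselves were processed differently or as reported. OPRK1 stays above 0 and TAC3 and 5HT2A below 0 throughout, and the 5HT2A value is farthest from 0, at -1.16, in the scanner-processed signal.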

How the data were processed

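Cyanine 3 labelled RNA of 16 fetal cortices was hybridized to Agilent sheep arrays. The authors' deposited scanner files hold the intensity of each of 15744 spots per array, from Feature Extraction 10.1.1.1 per the file headers (the paper names another version), not yet normalized. A second table that the authors deposited holds log2 values, made with limma in R 2.15.1 by the submitters' processing notes, and served as an alternative. Groups came from the sample titles.

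The spot means were background corrected by normexp in limma 3.58.1 under R 4.3.3 (median local background, offset 50), 536 control spots and 222 outlier-flagged spots were left out, arrays were quantile normalized, and spots of a probe were averaged. This left 15008 probes, of which 132 lacked a value on 1 or more arrays, none of them a probe of the 3 genes. The offset brings differences of dim probes toward 0. One model over the 4 groups gave all differences, standard errors and P values. Calls used the study's own criterion, P under 0.05 without adjustment. P values set a difference against the spread between fetuses, and the number of arrays limits the precision. They treat the fetuses as independent, although nearly all were twins whose shared ewes were not labelled. Correlations within groups used 100000 permutations within groups, two-sided, with Benjamini-Hochberg adjustment over 3 pairs. The model was tested on simulated data.

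Names were given to 1603 probes (990 genes): 727 by accession, 498 by symbol, 125 by gene ID, 19 by an older symbol and 13 by the symbol in capitals, through the RefSeq sheep table (assembly ARS-UI_Ramb_v3.0, used only for names), 39 from the files' descriptions and 182 by the files' own name. OPRK1 is unnamed in the files beyond its gene ID, and 5HT2A was matched by its description. Signalling and cell type lists were written by hand. The members and lists were chosen with earlier results of these data known. The text names the 3 genes with every probe, signalling genes called in a comparison (at most the 8 largest), SLC6A4, POMC and TAC1 chosen after their values were seen to complete the short lists, and the 5 genes most like each probe. Marker genes were named after their values were seen. Alternatives were other background corrections, normalizations and filters, blocks, weights, the other label of 1 fetus, and each array left out.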

Additional observations from a re-analysis of the deposited data

Results flagged for a closer look

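The ketamine difference of 2 signalling genes that are not members differed between hypoxia and normoxia, by limma's interaction term at an unadjusted P under 0.05, out of 67 such genes tested. For GRIN1 the log2 difference with ketamine was 0.21 (standard error 0.18) in normoxia and -0.33 (standard error 0.16) in hypoxia, and the difference between these was -0.54 (standard error 0.24, unadjusted P = 0.044, adjusted P = 0.779). For ADRB1 it was 0.18 (standard error 0.07) in normoxia and -0.06 (standard error 0.06) in hypoxia, and the difference was -0.24 (standard error 0.09, unadjusted P = 0.019, adjusted P = 0.734). Neither passed Benjamini-Hochberg adjustment over all probes. No fetus stood apart from its group in any of the 42 groups of 4 or 5 values tested for an outlier among the 4 probes and the called signalling genes.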

How the results depend on the processing

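The direction of the OPRK1 and TAC3 differences that chose these genes was the same under each alternative run, and only their size moved. Without background correction TAC3 in normoxia + ketamine minus normoxia control was -0.57. In the scanner-processed signal the differences for hypoxia, for ketamine in normoxia and for ketamine in hypoxia were -0.71, -0.79 and -0.48 for TAC3 and -0.56, -1.16 and -0.72 for 5HT2A, and OPRK1 with ketamine in normoxia was 0.86. Scaling to the 75th percentile after normexp moved the median of all probes by -0.16, -0.30 and 0.21 in these comparisons and by 0.38 between the ketamine groups. There TAC3 was -0.64, -0.95 and 0.23, 5HT2A was -0.41, -0.88 and 0.26, and OPRK1 with ketamine in normoxia was 0.28, and OPRK1 with ketamine in hypoxia turned to 0.018 (unadjusted P = 0.962 by limma). Relative to that median OPRK1 with ketamine in hypoxia kept its sign at -0.19. TAC3 was at -0.48, -0.65 and 0.02 and 5HT2A at -0.25, -0.58 and 0.06 relative to it. Between the ketamine groups TAC3 turned to 0.54 and 5HT2A to 0.73, or 0.16 and 0.35 relative to the median, from -0.12 and -0.05 as reported. The sign of called genes also changed under this scaling, with ADRB1 at -0.37 and 0.47 and OPRM1 at 0.47 (-0.07, 0.09 and 0.09 relative to the median). Of the genes not well above background on any array, whose values bear no fold, PENK was at -0.33, GHRH at 0.29 and GNRH1 at 0.19, and relative to the median GNRH1 did not turn (-0.02). Within slide 1, OPRK1 in hypoxia control minus normoxia control was 0.031. Leaving out 1 array at a time, OPRK1 with ketamine in hypoxia ran from -0.22 to -0.045. The cause of these moves was not tested. The filter on dim probes left no value for 5HT2A.

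Calls among the 70 signalling genes were few and moved easily. As reported they numbered 3 for hypoxia, 3 for ketamine in normoxia and 2 for ketamine in hypoxia. For ketamine in normoxia they were 5 without background correction, 9 in the scanner-processed signal, 0 with the 75th percentile after normexp, 6 with cyclic loess, 5 with the slide as a block, 7 with array weights and 5 with only the compared groups in the fit. For ketamine in hypoxia they were 0 without background correction, 0 with the 75th percentile after normexp, 0 with cyclic loess, 0 with the filter on dim probes, 4 with the slide as a block and 1 with the fetus of conflicting labels moved. For hypoxia they were 1 in the scanner-processed signal, 0 with the 75th percentile after normexp and 5 with that fetus moved. Between the ketamine groups 7 became 1 with the 75th percentile after normexp. With Benjamini-Hochberg adjustment 0 remained in each of the 4. Leaving out 1 array at a time gave 1 to 5 for hypoxia (1 without hypoxia control replicate 5, 5 without replicate 1), 2 to 9 for ketamine in normoxia (9 without normoxia control replicate 2), 1 to 6 for ketamine in hypoxia (6 without hypoxia + ketamine replicate 1 or 4) and 6 to 8 between the ketamine groups.

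With the replicate number as a block the calls were 5 for ketamine in normoxia and 7 for ketamine in hypoxia, and OPRK1 with ketamine in hypoxia was -0.14 (unadjusted P = 0.296 by limma). The numbers were not taken to pair the arrays, since not every pair met the criterion of a correlation above 0.1: of 21 pairs of arrays with the same number, 6 had deviations that did (r from -0.164 to 0.478), and 9 of 16 arrays correlated best with an array of their own number, a hint of shared variation from the data and not from the design.

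The correlation of OPRK1 with TAC3 turned to -0.0823 after group and slide means were taken out and to -0.136 with the second OPRK1 probe, an alternative chosen, like the leaving out of arrays here, after seeing the data. That of OPRK1 with 5HT2A turned to 0.168 without the 2 farthest arrays, and leaving out 1 array at a time gave -0.263 to 0.347 (0.347 without hypoxia control replicate 3, 0.00224 without normoxia + ketamine replicate 2).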

Other observations

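The 2 OPRK1 probes, which share 59 of 60 bases, differed by an amount that varied between arrays (SD 0.13 log2 units, n = 16). The largest gap, -0.33, was on normoxia + ketamine replicate 1, and on slide 2 normoxia control replicate 3 and normoxia + ketamine replicate 3 were at -0.28 and -0.22 while the other 6 arrays lay between -0.10 and 0.04.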
